A study of Mus musculus with 15 samples.

Results

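Interferon-stimulated and Schlafen genes were followed as a set of 44 mouse genes, chosen by symbol among the 56748 gene rows of the deposited count and TPM tables. They were measured by RNA sequencing in 15 libraries of cultured T helper 2 (Th2) cells, the CD4+ T cells that secrete the interleukins 4, 5 and 13. Stimulated cKO cells (4 libraries) and non-stimulated cKO cells (3 libraries) came from female VEC-Cre;Asb2fl/fl mice, in which the VE-cadherin promoter drives Cre. Stimulated control cells (5 libraries) and non-stimulated control cells (3 libraries) came from female Asb2fl/fl mice, so that both genotypes carried the floxed Asb2 alleles. VE-cadherin is made by endothelial cells and by the cells from which blood arises, so the deletion is not limited to T cells, and ASB2 is the substrate-binding subunit of a ubiquitin ligase. Neither the age nor the strain background of the mice is given in the labels, and the labels do not say that each library is a separate animal, so p-values measure the spread between these libraries, which may be technical.

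Naive splenic CD4+ cells of every group were first activated for 3 days on anti-CD3ε (5 µg/ml) with anti-CD28 (1 µg/ml), IL-2 (10 ng/ml), IL-4 (40 ng/ml) and anti-IFNγ (10 µg/ml), and then expanded for 3 days in IL-2 and IL-4 (20 ng/ml each) with no antibody. Stimulated cells were put on coated anti-CD3ε (3 µg/ml) with soluble anti-CD28 (2 µg/ml) at day 5 and kept there for 24 h. The antibody that neutralises interferon gamma was therefore present in the activation step of all groups, and no added interferon is named in the protocols.

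Interferons are secreted proteins that bind receptors on neighbouring cells, where Janus kinases phosphorylate STAT proteins. Type I interferons act through a complex with STAT2 and IRF9 that binds a promoter element with repeated GAAA, and the promoter element of the interferon gamma response is a palindrome of TTC and GAA. The induced genes encode sensors and destroyers of foreign nucleic acid, GTPases that attack the vacuoles of intracellular microbes, and regulators that damp the pathway. The Schlafen genes are a mouse family of growth and antiviral regulators, several of which change during the development and activation of T cells. The response is best known in infected tissue, but resting lymphocytes also carry a basal level of many of these transcripts.

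Library totals were 17.1 M to 24.2 M estimated counts (M, mega). Values per library are CPM, counts divided by the TMM-scaled size of their library in M counts, and TPM is used where levels of different genes are compared. Asb2, the targeted gene, had 9.58, 9.59, 9.44 and 9.36 CPM in stimulated cKO cells, against 34.1, 38, 32.3, 31.2 and 31.9 CPM in stimulated control cells. It had 12.7, 22.7 and 22.1 CPM in non-stimulated cKO cells, against 34.7, 25.6 and 49.7 CPM in non-stimulated control cells. It was below every control library in both conditions, and the labels do not say which exons the deletion removes. The 9 markers of CD4 and Th2 cells (Cd3e, Cd3d, Cd4, Cd28, Cd5, Gata3, Il4, Il5 and Il13) all had counts, and their summed level was 4502 to 5674 CPM in stimulated cKO cells, 4707 to 5463 in stimulated control cells, 2279 to 2552 in non-stimulated cKO cells and 2497 to 2675 in non-stimulated control cells. The sum does not stand for every marker: with stimulation 4 of the 9 were called higher and 3 lower in each genotype (edgeR adjusted p under 0.05). Of all tested genes, 26.7% were called higher and 27.1% lower in cKO cells, and 25.4% and 25.2% in control cells. Stimulated cKO replicate 3 stood apart in mitochondrial counts, at 9.43% against 4.36% to 6.24% in the other 14 libraries.

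RefSeq promoter windows on the GRCm38.p6 build, reaching from 250 bases before to 50 after each annotated start, were found for 33 of the 44 genes. The letters GAAANNGAA, as in the element of the type I interferon response with its last base left free, were read on both strands in 22 of these 33 genes (66.7%), against 9.76% of all 27025 genes with a window. The letters TTCNNNGAA, as in the element of the interferon gamma response, which read the same on both strands, were found in 7 of the 33 genes (21.2%), against 9.55% of all genes with a window. The genes were listed as interferon-stimulated, so the first share describes the list and is no result of these libraries. The following 6 windows, each the 250 bases before the start with matches to either word in capitals, are shown because they set side by side genes of the same family that moved in opposite directions on stimulation (Igtp and Irgm1, Gbp5 and Gbp7), a tested gene with no call that holds 3 matches (Isg15), and the gene with the largest fall (Ifi203).
Igtp: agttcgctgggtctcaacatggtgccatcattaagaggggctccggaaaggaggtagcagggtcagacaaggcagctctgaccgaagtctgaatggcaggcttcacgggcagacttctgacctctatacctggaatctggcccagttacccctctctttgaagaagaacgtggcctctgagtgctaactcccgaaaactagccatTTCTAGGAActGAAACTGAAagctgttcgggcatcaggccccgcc
Irgm1: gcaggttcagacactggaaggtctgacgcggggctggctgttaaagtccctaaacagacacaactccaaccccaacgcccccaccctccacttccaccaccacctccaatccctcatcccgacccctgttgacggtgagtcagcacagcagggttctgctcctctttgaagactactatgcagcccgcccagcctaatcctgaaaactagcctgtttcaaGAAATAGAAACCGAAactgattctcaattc
Gbp5: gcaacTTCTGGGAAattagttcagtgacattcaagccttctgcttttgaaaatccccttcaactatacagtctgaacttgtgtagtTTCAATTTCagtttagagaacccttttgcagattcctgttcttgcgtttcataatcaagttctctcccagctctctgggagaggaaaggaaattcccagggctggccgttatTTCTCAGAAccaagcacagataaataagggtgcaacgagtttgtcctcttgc
Gbp7: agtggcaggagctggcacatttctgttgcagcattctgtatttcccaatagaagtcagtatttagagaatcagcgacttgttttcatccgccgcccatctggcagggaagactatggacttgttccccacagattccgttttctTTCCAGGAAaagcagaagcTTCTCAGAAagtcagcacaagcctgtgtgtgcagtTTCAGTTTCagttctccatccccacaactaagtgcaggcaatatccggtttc
Isg15: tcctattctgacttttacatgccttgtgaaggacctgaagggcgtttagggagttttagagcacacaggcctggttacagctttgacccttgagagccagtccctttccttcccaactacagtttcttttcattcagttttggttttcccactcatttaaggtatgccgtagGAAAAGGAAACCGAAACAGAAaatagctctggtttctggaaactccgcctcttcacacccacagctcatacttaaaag
Ifi203: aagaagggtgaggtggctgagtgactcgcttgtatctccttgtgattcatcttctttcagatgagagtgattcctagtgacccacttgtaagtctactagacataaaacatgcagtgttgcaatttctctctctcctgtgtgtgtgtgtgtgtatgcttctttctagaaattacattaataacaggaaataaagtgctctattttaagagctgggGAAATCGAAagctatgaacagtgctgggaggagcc
The windows lie at chr11:58199306-58199555 on the plus strand (Igtp), chr11:48871421-48871670 on the minus strand (Irgm1), chr3:142496684-142496933 on the plus strand (Gbp5), chr3:142530086-142530335 on the plus strand (Gbp7), chr4:156200819-156201068 on the minus strand (Isg15) and chr1:173942493-173942742 on the minus strand (Ifi203). Igtp held 1 match to each word, with the first bases 34 and 45 bases before the start. Irgm1 held 2 overlapping matches to GAAANNGAA and none to TTCNNNGAA, whereas Isg15 held 3 overlapping matches to GAAANNGAA and none to the other word. Gbp5 and Gbp7 each held 1 match to GAAANNGAA, on the reverse strand, and 2 to TTCNNNGAA. Ifi203 has 2 annotated starts, and 1 of their windows, the one shown, held a match. GAAANNGAA was read in 4 of the 6 genes with a window that rose on stimulation in both genotypes and in 9 of the 14 with a window that fell in both, and TTCNNNGAA in 3 of those 6 and 2 of those 14. In the 6 windows shown, no match to one word overlapped a match to the other. A match is a description of letters and not of binding.

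Per transcript length, the list was led by few genes. Ifi27l2a, a small interferon-inducible protein, had 149.5 ± 66.4 TPM in stimulated cKO cells, 123 ± 19.1 in stimulated control cells, 124 ± 23.5 in non-stimulated cKO cells and 101 ± 29.8 in non-stimulated control cells (mean ± SD, n = 4, 5, 3 and 3). Slfn2, a Schlafen protein needed for quiescence of mouse T cells, followed with 132 ± 20.03, 127 ± 13.6, 52.5 ± 9.18 and 48.7 ± 4.39 TPM in the same order of groups. In non-stimulated cells of both genotypes Gbp4 stood at rank 2, at 60.5 ± 8.35 TPM in cKO cells and 54.5 ± 10.4 TPM in control cells, but it differed from Slfn2 at rank 3 by less than their spread. In stimulated cells of both genotypes Slfn2 and Ifi27l2a shared ranks 1 and 2 and likewise differed by less than their spread. Igtp was at rank 3 in stimulated cells, with 54 ± 10.2 TPM in cKO cells and 55.4 ± 7.95 TPM in control cells. At the other end, 7 genes (Ifit3, Oas1a, Oas2, Oasl2, Ifi204, Ifi44 and Rtp4) had too few counts to be tested, and the highest value any of them reached in a library was 0.681 CPM, for Rtp4 in a non-stimulated cKO library. The other 37 genes were tested among 15619 genes.

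**Figure D1:**
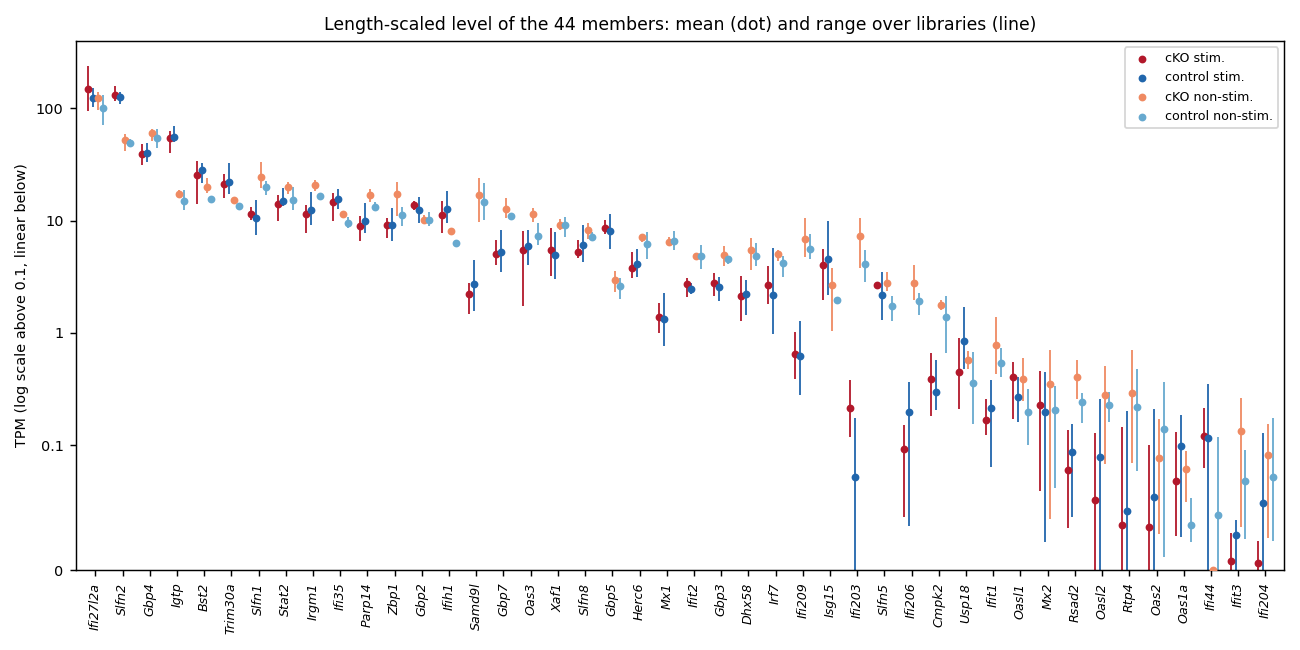
TPM (vertical axis, logarithmic above 0.1) of the 44 genes in stimulated cKO, stimulated control, non-stimulated cKO and non-stimulated control cells, in order of their mean; dots are group means and lines run from the lowest to the highest library. Ifi27l2a and Slfn2 lie near 100 TPM, and the 7 untested genes lie at the right end.

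With stimulation through CD3 and CD28, more of the genes fell than rose in both genotypes. In cKO cells, 7 of the 37 tested genes rose and 20 fell, against a background of 26.7% of all tested genes called higher and 27.1% called lower (edgeR quasi-likelihood test, adjusted p under 0.05). An unadjusted p under 0.05 was found for 29 of the 37 in cKO cells and 28 of the 37 in control cells, against 59.0% and 55.9% of all tested genes. In control cells, 7 rose and 19 fell, against a background of 25.4% called higher and 25.2% called lower. The genes that fell were thus 54.1% of the list in cKO cells and 51.4% in control cells, and those that rose were 18.9% in each. The median log2 fold change of the 37 genes was -0.75 in cKO cells, where the median of all tested genes was -0.01, and -0.60 in control cells, where it was 0.00. The stimulation comparisons of the genotypes share no library, and their calls met as follows: 6 genes rose in both (Igtp, Gbp5, Slfn2, Ifih1, Ifi35 and Trim30a), 18 fell in both, none moved in opposite directions and 8 were called in neither. Gbp2 rose and Zbp1 and Oas3 fell with a call in cKO cells alone, and Bst2 rose and Xaf1 fell with a call in control cells alone, but no gene of the list passed the test of the difference between the responses. On the authors' TPM scale, limma on log2(TPM + 1) called 3 genes higher (Igtp, Gbp5 and Slfn2) and 22 lower in cKO cells and 7 higher and 13 lower in control cells, and there the calls over all tested genes were 2526 higher and 3488 lower in cKO cells and 3706 higher and 2117 lower in control cells. In RNA from whole cultures, fewer cells of a kind and less RNA per cell cannot be told apart.

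**Figure D2:**
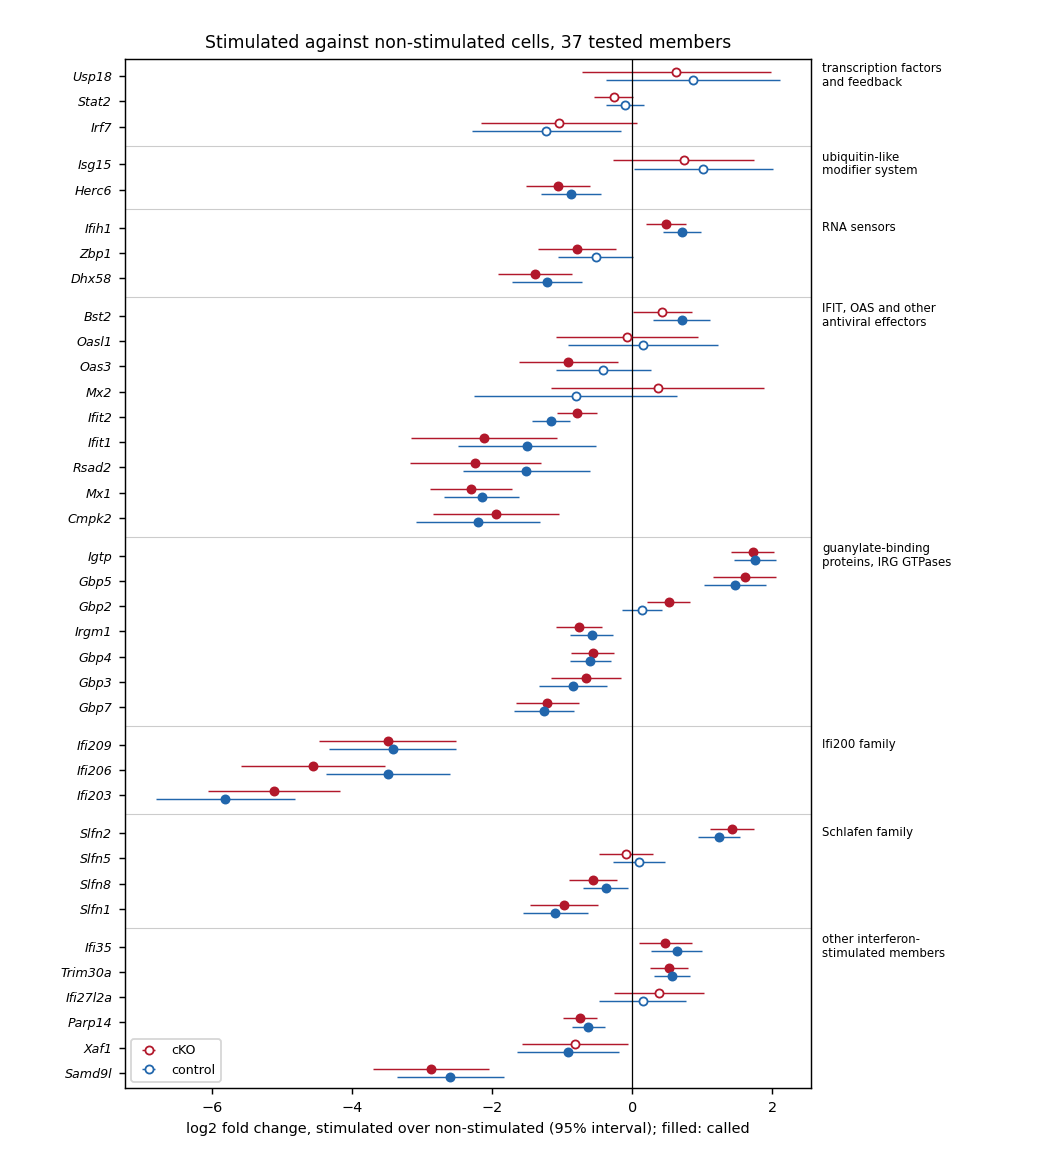
Log2 fold change of stimulated over non-stimulated cells (horizontal axis) with 95% intervals for the 37 tested genes, grouped by role, in cKO cells (red) above control cells (blue); filled points were called at an adjusted p under 0.05. The Ifi200 genes lie farthest to the left, at -3.42 or lower, and Igtp, Gbp5 and Slfn2 farthest to the right, at 1.24 or higher.

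Of the 3 regulators of the pathway, none was called in either genotype by the reported edgeR fit. In that fit 1 (Irf7, in control cells) had an unadjusted p under 0.05. Other edgeR settings and other tools called Irf7 and Stat2 lower. Stat2, the STAT of the type I interferon complex, had 54.3, 45.6, 38.8 and 42.1 CPM in stimulated cKO cells, against 57.6, 48.8 and 56.8 CPM in non-stimulated cKO cells. It had 45.6, 42.3, 48.4, 49.9 and 39.2 CPM in stimulated control cells, against 45.4, 59.5 and 40.5 CPM in non-stimulated control cells. The groups overlapped in both genotypes, with a log2 fold change of -0.27 ± 0.13 (SE) in cKO cells and -0.11 ± 0.13 in control cells (edgeR adjusted p = 0.102 and 0.521). In cKO cells limma-voom and limma on log2(TPM + 1) called Stat2 lower (adjusted p = 0.0471 and 0.0430, at -0.27 and -0.50). Without stimulated cKO replicate 1, edgeR also called Stat2 lower in cKO cells, at -0.37 (adjusted p = 0.028). Irf7, the factor that amplifies interferon production, had 7.49, 4.31, 3.8 and 1.51 CPM in stimulated cKO cells, against 7.89, 8.71 and 10.1 CPM in non-stimulated cKO cells. In control cells it had 1.76, 2.28, 3.3, 8.7 and 2.08 CPM with stimulation, against 6.53, 9.05 and 9.82 CPM without. Stimulated control replicate 4, at 8.70 CPM, reached the level of non-stimulated cells, while the other 4 stimulated control libraries stayed between 1.76 and 3.30 CPM. The log2 fold change of Irf7 was -1.05 ± 0.52 in cKO cells and -1.23 ± 0.49 in control cells (edgeR adjusted p = 0.102 and 0.0525). In control cells DESeq2, limma-voom and limma on log2(TPM + 1) called Irf7 lower (adjusted p = 0.0495, 0.00656 and 0.0327), and in cKO cells limma-voom did (adjusted p = 0.0130). In control cells edgeR with no robust dispersion or with a stricter count filter called Irf7 lower too (adjusted p = 0.0301 and 0.0462). With replicate number as a block within genotype, edgeR called Irf7 lower in both genotypes (adjusted p = 0.0141 in cKO and 1.39e-04 in control cells). Without stimulated control replicate 4 Irf7 was called lower in both genotypes, at -1.05 in cKO cells and -1.84 in control cells (adjusted p = 0.0193 and 6.81e-04), in a fit whose estimate of spread is shared by all groups. Usp18, the protease that removes ISG15 and blocks the type I receptor, was low in all groups, with means of 0.663 ± 0.494 CPM in stimulated cKO, 0.931 ± 0.565 in stimulated control, 0.436 ± 0.142 in non-stimulated cKO and 0.49 ± 0.439 in non-stimulated control cells.

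The ubiquitin-like modifier ISG15 and its ligase did not move as a pair. Isg15 had 2.48, 2.3, 2.56 and 0.807 CPM in stimulated cKO cells, against 1.43, 0.475 and 1.72 CPM in non-stimulated cKO cells, and the groups overlapped. It had 1.54, 1.01, 1.95, 4.13 and 1.68 CPM in stimulated control cells, against 1.07, 0.93 and 1.04 CPM in non-stimulated control cells, where 1 stimulated library lay within the range of the non-stimulated ones. Its log2 fold change was 0.74 ± 0.48 in cKO cells and 1.02 ± 0.47 in control cells, neither of them called (edgeR adjusted p = 0.204 and 0.0829). Leaving out stimulated control replicate 2 or stimulated cKO replicate 4 gave an adjusted p of 0.0408 and 0.0495 in control cells, at 1.20 and 1.03. Herc6, which attaches ISG15 to proteins in mouse cells, fell to a mean of 11.5 ± 3.03 CPM in stimulated cKO cells, against 24 ± 2.0 CPM in non-stimulated cKO cells, and to 11.9 ± 3.69 CPM in stimulated control cells, against 21.7 ± 0.32 CPM in non-stimulated control cells. The log2 fold change of Herc6 was -1.06 ± 0.22 in cKO cells and -0.88 ± 0.20 in control cells (edgeR adjusted p = 5.57e-04 and 0.00185).

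Among the nucleic acid sensors of the list, the RNA sensor MDA5 and its regulator LGP2 went opposite ways. Ifih1, which encodes MDA5, had 42.9, 50.4, 39.98 and 36.1 CPM in stimulated cKO cells, against 33, 28.3 and 29.7 CPM in non-stimulated cKO cells. It had 35.1, 42, 42.3, 54.5 and 46.9 CPM in stimulated control cells, against 27.5, 25.3 and 28.2 CPM in non-stimulated control cells. Every stimulated library was above every non-stimulated library of its genotype. Ifih1 rose 1.4-fold in cKO cells and 1.63-fold in control cells, a log2 fold change of 0.48 ± 0.13 and 0.71 ± 0.13 (edgeR adjusted p = 0.00556 and 1.97e-04). Dhx58, which encodes LGP2, fell in both genotypes, to a mean of 3.81 ± 0.934 CPM in stimulated cKO cells, against 9.98 ± 3.0 CPM in non-stimulated cKO cells, and to 3.94 ± 0.951 CPM in stimulated control cells, against 9.17 ± 1.9 CPM in non-stimulated control cells. For Dhx58 the log2 fold change was -1.39 ± 0.25 in cKO cells and -1.21 ± 0.24 in control cells. Zbp1, a sensor of left-handed nucleic acid that can start necroptosis, was called lower in cKO cells, at -0.79 ± 0.26, and not in control cells, at -0.52 ± 0.25 (edgeR adjusted p = 0.0192 and 0.0967). The cKO call of Zbp1 was lost without stimulated replicate 4, without non-stimulated replicate 2 and without non-stimulated replicate 3 of the cKO cells (-0.63, -0.70 and -0.60; adjusted p = 0.0618, 0.0677 and 0.106).

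The antiviral effectors mostly fell. Of 13 genes 9 were tested, and 6 fell and none rose in cKO cells, while 5 fell and 1 rose in control cells. Of all tested genes, 27.1% were called lower and 26.7% higher in cKO cells, and 25.2% and 25.4% in control cells. Mx1, a dynamin-like GTPase that restricts influenza virus, had 3.74, 3.36, 2.95 and 1.51 CPM in stimulated cKO cells, against 14.9, 13.5 and 14.7 CPM in non-stimulated cKO cells. It had 1.97, 3.59, 3.25, 5.35 and 2.43 CPM in stimulated control cells, against 13.1, 14.1 and 17.1 CPM in non-stimulated control cells. No stimulated library came near a non-stimulated one, and Mx1 was 4.93-fold lower with stimulation in cKO cells and 4.45-fold lower in control cells. The log2 fold change of Mx1 was -2.300 ± 0.28 in cKO cells and -2.15 ± 0.26 in control cells (edgeR adjusted p = 2.97e-06 and 2.61e-06). Mx2, its paralog, stayed under 1 CPM in every library and was not called, at 0.36 ± 0.72 in cKO cells and -0.81 ± 0.69 in control cells.

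Rsad2 and Cmpk2, neighbouring genes for viperin and for a mitochondrial nucleotide kinase, were scarce and fell together. Cmpk2 had 2.24, 1.27, 1.05 and 0.484 CPM in stimulated cKO cells, against 5.4, 3.43 and 5.9 CPM in non-stimulated cKO cells. It had 0.745, 0.658, 0.70, 1.56 and 0.751 CPM in stimulated control cells, against 3.16, 6.82 and 2.29 CPM in non-stimulated control cells. The groups did not overlap in either genotype, and the log2 fold change was -1.94 ± 0.43 in cKO cells and -2.21 ± 0.42 in control cells (edgeR adjusted p = 0.00107 and 3.23e-04). Rsad2 had 0.389, 0.451, 0.262 and 0.108 CPM in stimulated cKO cells, against 0.916, 1.37 and 2.18 CPM in non-stimulated cKO cells. In control cells it had 0.16, 0.253, 0.50, 0.502 and 0.289 CPM with stimulation, against 0.642, 1.09 and 1.21 CPM without. These groups did not overlap either, although Rsad2 was near or below 1 CPM in most libraries. Its log2 fold change was -2.24 ± 0.45 in cKO cells and -1.51 ± 0.43 in control cells (edgeR adjusted p = 3.93e-04 and 0.00704).

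The IFIT proteins bind foreign RNA and block its translation. Ifit2 had 10.4, 9.96, 10.7 and 9.36 CPM in stimulated cKO cells, against 17.8, 16.8 and 17.8 CPM in non-stimulated cKO cells. It had 8.4, 9.21, 9.8, 7.42 and 8.32 CPM in stimulated control cells, against 20.1, 22.8 and 15.1 CPM in non-stimulated control cells. All stimulated libraries were lower than all non-stimulated libraries, and replicates of stimulated cells lay close together. Ifit2 fell in both genotypes, with a log2 fold change of -0.79 ± 0.13 in cKO cells and -1.16 ± 0.13 in control cells (edgeR adjusted p = 8.33e-05 and 7.29e-07). Ifit1 also fell, to 0.435 ± 0.126 CPM in stimulated cKO cells, against 1.91 ± 1.3 CPM in non-stimulated cKO cells, and to 0.522 ± 0.333 CPM in stimulated control cells, against 1.48 ± 0.52 CPM in non-stimulated control cells. Its log2 fold change was -2.11 ± 0.50 in cKO cells and -1.502 ± 0.47 in control cells (edgeR adjusted p = 0.00161 and 0.0122). Its control call was lost without non-stimulated control replicate 3, at -1.17 (adjusted p = 0.0836). Of Ifit3, 61.8% of the 31-base words in its annotated transcripts also occur in Ifit3b, and it had no value above 0.398 CPM.

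Among oligoadenylate synthetases, which make the activator of RNase L, only Oas3 was well counted. Oas3 fell to 22.6 ± 10.7 CPM in stimulated cKO cells, against 42.8 ± 6.1 CPM in non-stimulated cKO cells, at -0.92 ± 0.33 (edgeR adjusted p = 0.0307). It was 23.4 ± 6.08 CPM in stimulated control cells, against 31.2 ± 5.2 CPM in non-stimulated control cells, with no call (-0.42 ± 0.31, adjusted p = 0.294). The cKO call was lost when stimulated replicate 2 or 4 or non-stimulated replicate 1 or 3 of the cKO cells was left out, at adjusted p values of 0.0593, 0.0722, 0.0811 and 0.09. Oasl1, a relative with no synthetase activity, had 0.215 to 1.22 CPM in stimulated cKO cells, 0.350 to 0.725 in stimulated control cells, 0.475 to 1.04 in non-stimulated cKO cells and 0.214 to 0.692 in non-stimulated control cells, and was not called. Oas1a shares 68.7% of its words with Oas1g, so its low counts, at most 0.319 CPM, cannot be assigned to it alone.

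Bst2, which encodes tetherin, a membrane anchor that holds budding virus on the cell, was the 1 effector that rose. It had 20.7, 14.6, 11 and 11.9 CPM in stimulated cKO cells, against 13, 9.66 and 9.84 CPM in non-stimulated cKO cells, and the groups overlapped. It had 18.4, 16.1, 16.4, 16.1 and 11.1 CPM in stimulated control cells, against 10.2, 9.05 and 9.56 CPM in non-stimulated control cells, with no overlap. The log2 fold change was 0.43 ± 0.20 in cKO cells, which was not called, and 0.71 ± 0.19 in control cells (edgeR adjusted p = 0.0779 and 0.00555). The difference between the genotypes' responses was -0.28 with a 95% interval of -0.85 to 0.30.

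The interferon-inducible GTPases split most clearly. Igtp, Gbp5 and, in cKO cells, Gbp2 rose, whereas Irgm1, Gbp3, Gbp4 and Gbp7 fell in both genotypes. Guanylate-binding proteins (GBPs) coat and break vacuoles that hold microbes, and immunity-related GTPases (IRGs) such as IGTP and IRGM1 guard the cell's own membranes from these attackers. Igtp had 119.6, 102, 100.5 and 85.1 CPM in stimulated cKO cells, against 30.04, 29.1 and 33.6 CPM in non-stimulated cKO cells. It had 103, 93.9, 102, 112 and 87.2 CPM in stimulated control cells, against 24.9, 25.6 and 38 CPM in non-stimulated control cells. The lowest stimulated library was above the highest non-stimulated one by a wide margin in both genotypes. Igtp rose 3.29-fold in cKO cells and 3.37-fold in control cells, a log2 fold change of 1.72 ± 0.15 and 1.75 ± 0.14 (edgeR adjusted p = 4.26e-08 and 2.27e-08). Of the words in Igtp transcripts 15.9% occur in Irgm2, so part of its reads can be shared between these genes.

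Gbp5, a GBP that helps assemble inflammasomes in macrophages, had 24.6, 26.9, 32.4 and 22.6 CPM in stimulated cKO cells, against 10.3, 9.24 and 6.76 CPM in non-stimulated cKO cells. It had 17.2, 27.5, 20.8, 21.2 and 31 CPM in stimulated control cells, against 10.01, 6.2 and 9.34 CPM in non-stimulated control cells. Again no libraries overlapped, and Gbp5 rose 3.04-fold in cKO cells and 2.76-fold in control cells (log2 fold change 1.61 ± 0.22 and 1.47 ± 0.21; edgeR adjusted p = 1.03e-05 and 1.97e-05). Gbp2, a related GBP, had 32.1, 29, 42.9 and 30.9 CPM in stimulated cKO cells, against 25.7, 23.1 and 21.4 CPM in non-stimulated cKO cells. In control cells it had 23.2, 27.1, 27.2, 31 and 34.8 CPM with stimulation, against 25.2, 29 and 23.7 CPM without. It was called in cKO cells, where the groups did not overlap, and not in control cells, where they did (0.52 ± 0.15 and 0.14 ± 0.14; edgeR adjusted p = 0.00561 and 0.423). The difference between these responses was 0.38 ± 0.20, with a 95% interval of -0.04 to 0.80, and was not called.

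Of the 7 GBP and IRG genes of the list, Gbp7 had the largest fall. It was at 26.8 ± 6.22 CPM in stimulated cKO cells, against 62.2 ± 14 CPM in non-stimulated cKO cells, and at 25.3 ± 6.48 CPM in stimulated control cells, against 60.7 ± 5.27 CPM in non-stimulated control cells. This is a log2 fold change of -1.21 ± 0.21 in cKO cells and -1.26 ± 0.20 in control cells (edgeR adjusted p = 1.82e-04 and 7.88e-05). Irgm1, which directs autophagy around vacuoles in mouse cells, was at 24 ± 4.48 CPM in stimulated cKO cells, against 40.6 ± 4.53 CPM in non-stimulated cKO cells, and at 24.7 ± 4.99 CPM in stimulated control cells, against 36.8 ± 1.18 CPM in non-stimulated control cells. On the log2 scale Irgm1 changed by -0.76 ± 0.15 in cKO cells and -0.58 ± 0.15 in control cells. Igtp and Irgm1 thus moved apart, and of their windows printed above both hold GAAANNGAA and that of Igtp alone holds TTCNNNGAA. Gbp5 and Gbp7 also moved apart, while their windows each hold 1 match to GAAANNGAA and 2 to TTCNNNGAA. What part either word had in these moves was not tested. Gbp4, the GBP with the most TPM of the list, fell with a log2 fold change of -0.57 ± 0.15 in cKO cells and -0.60 ± 0.14 in control cells, where a single stimulated library overlapped the non-stimulated range. Gbp3 fell at -0.66 ± 0.24 in cKO cells and -0.85 ± 0.23 in control cells (edgeR adjusted p = 0.0272 and 0.00501). The Gbp3 call in cKO cells was lost without any of stimulated replicates 1, 2 and 4 and non-stimulated replicates 1 and 3 of the cKO cells, with log2 fold changes between -0.47 and -0.68. In Gbp4 and Gbp7, 14.3% and 14.7% of the words occur in other genes.

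**Figure D3:**
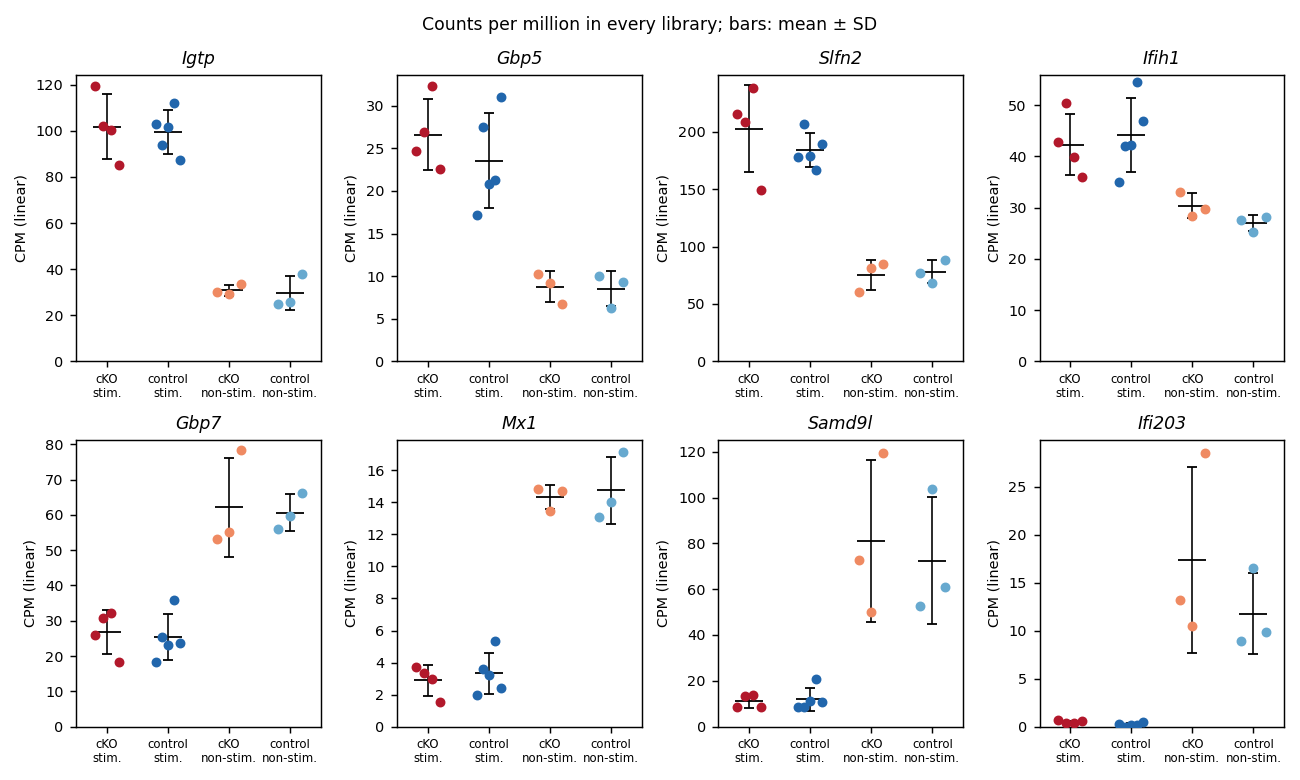
CPM (vertical axis, linear from 0) of 8 genes in every library of stimulated cKO, stimulated control, non-stimulated cKO and non-stimulated control cells; points are libraries, and bars give the mean and SD. Igtp, Gbp5, Slfn2 and Ifih1 are higher in all stimulated libraries, and Gbp7, Mx1, Samd9l and Ifi203 are lower.

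The Ifi200 genes fell most of all. They encode PYHIN proteins, which bind DNA and regulate inflammasomes and transcription, and lie in a cluster of near-identical copies. Ifi203 had 0.632, 0.41, 0.393 and 0.538 CPM in stimulated cKO cells, against 13.2, 10.5 and 28.5 CPM in non-stimulated cKO cells. It had 0.266, 0, 0.15, 0.167 and 0.462 CPM in stimulated control cells, against 8.88, 16.6 and 9.91 CPM in non-stimulated control cells. It was under 1 CPM in all 9 stimulated libraries and at 8.88 CPM or more in all 6 non-stimulated ones, 34.8-fold lower in cKO cells and 56.2-fold lower in control cells. The log2 fold change was -5.12 ± 0.44 in cKO cells and -5.81 ± 0.47 in control cells (edgeR adjusted p = 1.92e-07 and 7.99e-08).

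Ifi206 had 0.486, 0.287, 0.328 and 0.108 CPM in stimulated cKO cells, against 4.84, 5.65 and 11.5 CPM in non-stimulated cKO cells. It had 0.106, 0.354, 0.40, 0.948 and 0.925 CPM in stimulated control cells, against 4.6, 6.93 and 6.79 CPM in non-stimulated control cells. All stimulated libraries were under 1 CPM and all non-stimulated ones at 4.60 CPM or more, a log2 fold change of -4.57 ± 0.49 in cKO cells and -3.49 ± 0.42 in control cells (edgeR adjusted p = 9.95e-07 and 3.74e-06). Ifi209 had 1.12, 1.92, 3.73 and 0.952 CPM in stimulated cKO cells, against 17.2, 15.5 and 31.2 CPM in non-stimulated cKO cells. In control cells it had 0.957, 1.1, 1.39, 3.01 and 2.7 CPM with stimulation, against 16.7, 26.3 and 15.8 CPM without. The groups were again apart, at -3.495 ± 0.45 in cKO cells and -3.42 ± 0.42 in control cells (edgeR adjusted p = 2.26e-05 and 1.43e-05). Non-stimulated cKO replicate 3 was the highest library for all 3 of these genes.

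These values belong to the cluster more safely than to single genes. Of the 31-base words in annotated transcripts, 21.6% of Ifi203, 36.4% of Ifi206 and 47.2% of Ifi209 occur in other genes, led by Ifi203-ps, Ifi213 and Ifi214. Ifi204, with 34% shared words, was not tested and had at most 0.358 CPM. Of 8 other Ifi200 genes, 7 had a row and 4 were tested, and those 4 (Mndal, Ifi213, Ifi214 and Ifi211) fell in both genotypes. The share of all tested genes called lower was 27.1% in cKO cells and 25.2% in control cells. Ifi206 shares 16.8% of its words with Ifi213, Ifi209 46.8% with Ifi214 and Ifi204 18.9% with Ifi211. Reads can thus be split between them, and these falls are no separate evidence. Mndal was at 2.57 ± 1.04 CPM in stimulated cKO cells, against 24.7 ± 9.1 CPM in non-stimulated cKO cells, and at 2.71 ± 1.29 CPM in stimulated control cells, against 19.3 ± 3.36 CPM in non-stimulated control cells. The smallest fall of the 4 was that of Ifi211, at -0.93 ± 0.38 in cKO cells and -1.02 ± 0.38 in control cells (edgeR adjusted p = 0.0489 and 0.0318).

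Myeloid and natural killer cells also express Ifi200 genes, and some of their markers moved the same way. The 8 markers of monocytes and macrophages summed to 3.44 to 6.47 CPM in stimulated cKO cells, 2.87 to 5.55 in stimulated control cells, 11.5 to 19.2 in non-stimulated cKO cells and 12.1 to 20.8 in non-stimulated control cells, most of it Adgre1 in non-stimulated cells. Lyz2, C1qa and C1qb, defining genes of that list, had 0 counts in all 15 libraries. Only 2 of the 8 were tested, and 1 of these fell in each genotype. The 5 markers of natural killer cells summed to 0.681 to 2.49 CPM in stimulated cKO cells, 0.600 to 2.29 in stimulated control cells, 3.97 to 6.62 in non-stimulated cKO cells and 3.16 to 18.8 in non-stimulated control cells. Only 1 of these 5 was tested, and that marker fell in each genotype. The 6 markers of plasmacytoid dendritic cells, a strong source of type I interferon, summed to 12.5 to 16.1 CPM in stimulated cKO cells, 12.4 to 18.4 in stimulated control cells, 18.01 to 20.7 in non-stimulated cKO cells and 19.3 to 23.7 in non-stimulated control cells, with Siglech and Klk1 at 0 counts in all libraries. Of its 2 tested markers, 1 fell in cKO cells and 2 in control cells. The 6 markers of conventional dendritic cells went the other way, at 5.10 to 7.18 CPM in stimulated cKO cells, 6.43 to 8.2 in stimulated control cells, 3.11 to 4.72 in non-stimulated cKO cells and 3.26 to 6.1 in non-stimulated control cells, with Cd209a and Clec9a at 0 counts, and of its 3 tested markers 2 rose and 1 fell in each genotype. Beside these marker counts, 26.7% of all tested genes were called higher and 27.1% lower in cKO cells, and 25.4% and 25.2% in control cells. What part cells of these kinds had in the changes was not tested.

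The Schlafen genes also split. Slfn2 rose in both genotypes, Slfn1 and Slfn8 fell in both, and Slfn5 was not called. Slfn2 had 216, 208, 238 and 149 CPM in stimulated cKO cells, against 60.02, 81 and 84.9 CPM in non-stimulated cKO cells. It had 178, 207, 179, 167 and 189 CPM in stimulated control cells, against 76.8, 68.6 and 88.6 CPM in non-stimulated control cells. The lowest stimulated library, cKO replicate 4 at 149 CPM, was still above the highest non-stimulated one, control replicate 3 at 88.6 CPM. Slfn2 rose 2.69-fold in cKO cells and 2.36-fold in control cells, a log2 fold change of 1.43 ± 0.15 and 1.24 ± 0.15 (edgeR adjusted p = 5.44e-07 and 1.80e-06).

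Slfn1, which slows the growth of T cells when overexpressed in mice, was at 20.5 ± 4.62 CPM in stimulated cKO cells, against 40.2 ± 12.3 CPM in non-stimulated cKO cells, and at 17.1 ± 4.53 CPM in stimulated control cells, against 36.5 ± 4.43 CPM in non-stimulated control cells. Its log2 fold change was -0.98 ± 0.23 in cKO cells and -1.099 ± 0.22 in control cells (edgeR adjusted p = 0.00203 and 5.90e-04). Slfn8 was called lower at -0.56 ± 0.16 in cKO cells and -0.38 ± 0.16 in control cells, the second at an adjusted p of 0.0490 with overlapping groups and lost in 13 of the 15 fits that leave out 1 library, at -0.31 to -0.41. Slfn5 was at -0.09 ± 0.18 in cKO cells and 0.09 ± 0.18 in control cells. Of 6 other genes of the family 3 were tested: Slfn10-ps, a pseudogene by its name, rose in both genotypes (0.55 in cKO cells and 0.63 in control cells), Slfn3 fell in both (-0.69 and -0.69) and Slfn9 was not called. Slfn8 shares 19.1% of its words with Slfn9, and Slfn2 10.3% with other genes. Neither GAAANNGAA nor TTCNNNGAA was read in the promoter windows of Slfn1 and Slfn2, whereas Slfn5 held 2 matches to GAAANNGAA and Slfn8 held 1.

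Among the remaining genes, Samd9l fell most and Trim30a and Ifi35 rose. Samd9l, an interferon-induced restriction factor of poxviruses, had 8.46, 13.3, 13.7 and 8.66 CPM in stimulated cKO cells, against 73, 50.1 and 119.6 CPM in non-stimulated cKO cells. It had 8.62, 8.4, 11.4, 20.7 and 10.7 CPM in stimulated control cells, against 52.5, 104 and 60.9 CPM in non-stimulated control cells. The groups were far apart, and Samd9l was 7.35-fold lower with stimulation in cKO cells and 6.07-fold lower in control cells, at -2.88 ± 0.38 and -2.601 ± 0.35 on the log2 scale (edgeR adjusted p = 3.92e-05 and 4.83e-05). Parp14, an ADP-ribosyltransferase that assists IL-4 signalling through STAT6, fell at -0.75 ± 0.12 in cKO cells and -0.63 ± 0.11 in control cells. Xaf1, a promoter of apoptosis, was called lower in control cells, at -0.92 ± 0.34 (edgeR adjusted p = 0.0351), and not in cKO cells, at -0.81 ± 0.36. The Xaf1 call was lost when any library of the control cells other than stimulated replicate 4 was left out, at -0.82 to -0.97.

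Trim30a, a ubiquitin ligase that restrains NF-κB signalling in mouse cells, had 85, 83.5, 80.3 and 65.9 CPM in stimulated cKO cells, against 53.4, 54.5 and 56 CPM in non-stimulated cKO cells. It had 72.9, 72.4, 70.2, 105 and 76 CPM in stimulated control cells, against 50.5, 51.6 and 58.4 CPM in non-stimulated control cells. Every stimulated library was higher than every non-stimulated one, at 0.53 ± 0.13 in cKO cells and 0.57 ± 0.12 in control cells (edgeR adjusted p = 0.00216 and 9.03e-04). Ifi35, a leucine-zipper protein, had 21.5, 16.1, 15.1 and 14.1 CPM in stimulated cKO cells, against 11.9, 12.2 and 12 CPM in non-stimulated cKO cells. It had 21.5, 16.2, 19.4, 12 and 15.7 CPM in stimulated control cells, against 10.9, 9.15 and 12.7 CPM in non-stimulated control cells. Only stimulated control replicate 4 lay within the range of its non-stimulated group, and the log2 fold change was 0.47 ± 0.18 in cKO cells and 0.63 ± 0.17 in control cells (edgeR adjusted p = 0.0336 and 0.00553). The cKO call of Ifi35 was lost without stimulated replicate 1 (0.33, adjusted p = 0.122) and without each of the 3 non-stimulated libraries of the cKO cells (adjusted p = 0.0669 to 0.0791). Ifi27l2a was not called, at 0.38 ± 0.30 in cKO cells and 0.15 ± 0.29 in control cells.

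By single-gene exact permutation tests of log2 CPM, two-sided, the smallest p the design allows is 0.0286 for 4 against 3 cKO libraries and 0.0179 for 5 against 3 control libraries. Igtp, Gbp5, Slfn2, Mx1, Samd9l, Ifi203, Ifi206 and Ifi209 each reached that smallest p in both genotypes. In the same exact permutation tests, of the called genes Ifih1, Zbp1, Oas3, Cmpk2, Slfn1, Ifi35 and Trim30a had p = 0.0571 and Gbp3 p = 0.114 in cKO cells, and Slfn8 p = 0.107 and Ifi35 p = 0.0714 in control cells.

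Of the ligands, only the gene for interferon gamma could be tested. Of 20 interferon genes, 13 had 0 counts in all 15 libraries. Ifng had 89.98, 70.4, 70.4 and 24.4 CPM in stimulated cKO cells, against 0.56, 0.897 and 1.09 CPM in non-stimulated cKO cells. It had 92.8, 38.8, 61.5, 195 and 36.7 CPM in stimulated control cells, against 0.482, 0.517 and 1.86 CPM in non-stimulated control cells. Ifng was higher in every stimulated library, at 6.21 ± 0.90 in cKO cells and 6.403 ± 0.88 in control cells (edgeR adjusted p = 1.15e-04 and 7.65e-05). Its highest library was stimulated control replicate 4 and its lowest stimulated library was cKO replicate 4.

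Of 10 genes for receptors, kinases and transcription factors of the pathway, 3 rose and 3 fell in cKO cells, near the background of 26.7% higher and 27.1% lower. In control cells 3 rose and 5 fell, where the background was 25.4% and 25.2%. Ifngr1, a chain of the interferon gamma receptor, was at 33.3 ± 4.29 CPM in stimulated cKO cells, against 107 ± 25.9 CPM in non-stimulated cKO cells, and at 34.1 ± 4.48 CPM in stimulated control cells, against 114 ± 27.7 CPM in non-stimulated control cells (-1.69 ± 0.17 in cKO and -1.74 ± 0.16 in control cells). Ifnar1, a chain of the type I receptor, also fell, at -0.76 ± 0.12 in cKO cells and -0.86 ± 0.11 in control cells, and Ifnar2, the other chain, had 38.2 ± 5.38, 34.1 ± 2.56, 37.1 ± 1.56 and 40.8 ± 2.99 CPM in stimulated cKO, stimulated control, non-stimulated cKO and non-stimulated control cells. The kinase gene Jak1 fell at -0.84 ± 0.08 in cKO cells and -0.89 ± 0.08 in control cells, while Jak2 rose at 1.03 ± 0.11 and 0.79 ± 0.10. Irf9, the DNA-binding partner of STAT2, was not called, at -0.29 ± 0.15 in cKO cells and -0.13 ± 0.14 in control cells. Among 7 negative regulators 3 rose (the phosphatase genes Ptpn2, Ptpn6 and Ptpn11) and 2 fell in each genotype, Pias1 among them at -0.35 and -0.41, and Socs1 was not called (0.01 ± 0.29 in cKO and 0.28 ± 0.28 in control cells).

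Interferon-stimulated genes outside the list of 44 fell more often than they rose. These genes too were chosen with earlier results of these data known and were counted in the same libraries, so they are no separate evidence. Of 50 further genes 44 were tested, and 3 rose and 24 fell in cKO cells, while 3 rose and 25 fell in control cells, beside the same backgrounds of 26.7% higher and 27.1% lower in cKO cells and 25.4% and 25.2% in control cells. Their median log2 fold change was -0.53 in cKO cells and -0.58 in control cells, where the medians of all tested genes were -0.01 and 0.00. Isg20, an exonuclease gene, had the largest change of the 4 named by rule, at -3.41 ± 0.29 in cKO cells and -2.68 ± 0.26 in control cells, followed by Epsti1 (-1.72 and -1.83), Sp100 (-1.33 and -1.17) and Nt5c3 (-0.995 and -1.01). Irf1, an interferon-induced transcription factor, was not called, at -0.18 ± 0.15 in cKO cells and -0.11 ± 0.14 in control cells. Of 11 tested GTPases outside the list, 2 rose and 7 fell in cKO cells, and 3 rose and 7 fell in control cells, with Gvin1, a very large inducible GTPase, at 165 ± 22.3 CPM in stimulated cKO cells, against 757 ± 43.7 CPM in non-stimulated cKO cells, and at 175 ± 33.3 CPM in stimulated control cells, against 761 ± 13.6 CPM in non-stimulated control cells. Tgtp1, Gbp11 and Gbp6 fell too, with log2 fold changes of -2.59, -1.598 and -0.67 in cKO cells and -1.93, -1.58 and -0.72 in control cells.

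Of 13 tested sensors and adaptors, 2 rose and 7 fell in cKO cells (all tested genes, 26.7% and 27.1%), and 1 rose and 6 fell in control cells (25.4% and 25.2%). Cgas, the DNA sensor that makes cyclic GMP-AMP, rose with a log2 fold change of 0.74 ± 0.11 in cKO cells and 0.46 ± 0.10 in control cells. Ddx58, the gene for the RNA sensor RIG-I, fell at -1.33 ± 0.19 in cKO cells and -1.17 ± 0.18 in control cells. The kinase gene Tbk1 (-0.58 and -0.48) and the DNA sensor gene Aim2 (-0.53 and -0.40) fell by less. Of 12 antigen processing genes, 2 rose and 3 fell in cKO cells, shares no higher than those backgrounds, and 2 rose and 5 fell in control cells. Tapbp, the chaperone of class I loading, fell at -1.19 ± 0.13 in cKO cells and -1.24 ± 0.12 in control cells, and Psme1, a proteasome activator subunit, rose at 0.41 and 0.41. H2-D1 and Tap1 were called lower in control cells (-0.44 and -0.41) and not in cKO cells (-0.22 and -0.22).

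Between cKO and control cells none of the 37 genes was called in either condition. In non-stimulated cells Asb2 itself, at 19.2 ± 5.62 CPM in cKO cells, against 36.7 ± 12.2 CPM in control cells, did not pass the threshold either (log2 fold change -0.94 ± 0.21, edgeR unadjusted p = 3.26e-04 and adjusted p = 1). In stimulated cells 0 were called higher and 0 lower, where the background was 0.00% higher and 0.00640% lower (1 gene, Asb2). In non-stimulated cells 0 were called in either direction, where the background was 0.00% in both. None had an unadjusted edgeR p under 0.05 in either condition, where 1.81% of all tested genes did in stimulated and 2.57% in non-stimulated cells, and DESeq2, limma-voom and limma on TPM also called none of the 37. Ifi203 had the smallest p in both conditions: stimulated cKO cells had 0.493 ± 0.113 CPM, against 0.209 ± 0.171 in stimulated control cells, and non-stimulated cKO cells had 17.4 ± 9.7 CPM, against 11.8 ± 4.19 in non-stimulated control cells. The log2 fold change of cKO over control was 1.26 ± 0.64 in stimulated cells (95% interval -0.11 to 2.63, edgeR unadjusted p = 0.0695, exact permutation p = 0.0397) and 0.56 ± 0.37 in non-stimulated cells (-0.22 to 1.34, edgeR unadjusted p = 0.144).

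The next genes by p were Gbp2 and Ifit2 in stimulated cells. Gbp2 was at 0.23 with an interval of -0.03 to 0.50, and Ifit2 at 0.22 with an interval of -0.03 to 0.48, from the library values given above, which overlapped between the genotypes. An exact permutation test of log2 CPM alone, two-sided, gave p = 0.0317 for Ifit2 and 0.222 for Gbp2, where the smallest p that 4 against 5 libraries allow is 0.00794. These permutation p values, and that of Ifi203 above, are unadjusted. The genes were picked by their p in the same libraries, so the permutation tests are no separate evidence. In non-stimulated cells Rsad2 and Oasl1 followed, at 0.60 (-0.30 to 1.500) and 0.72 (-0.42 to 1.86), where 3 against 3 libraries cannot give a permutation p below 0.100. In those cells 31 of the 37 estimates were positive, with a median of 0.13, where the median of all tested genes was 0.00. In stimulated cells 20 were positive and 17 negative, with a median of 0.01. The genes share libraries, so these estimates are not independent of each other. Among non-stimulated cKO libraries, replicate 3 was the highest for 24 of the 37 genes. Among the best-counted genes, the interval of Igtp was -0.22 to 0.29 in stimulated and -0.25 to 0.38 in non-stimulated cells, and that of Slfn2 was -0.13 to 0.41 and -0.38 to 0.28. That of Oas3 in non-stimulated cells was wider, at -0.30 to 1.21.

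**Figure D4:**
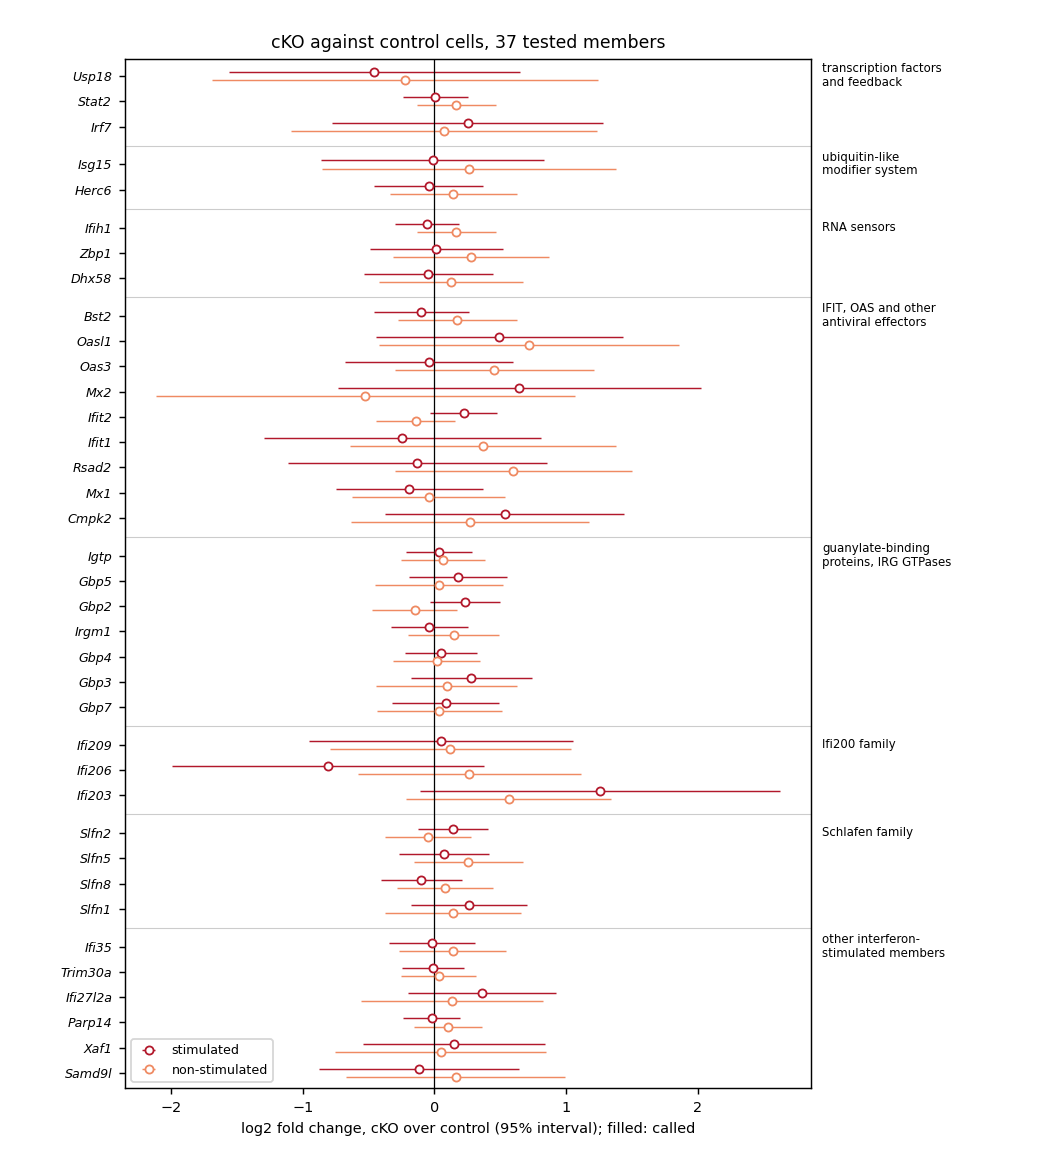
Log2 fold change of cKO over control cells (horizontal axis) with 95% intervals for the 37 tested genes, in stimulated cells (red) above non-stimulated cells (orange); open points were not called. All intervals of the 37 genes include 0 in both conditions.

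The response to stimulation did not differ detectably between the genotypes for any gene. For the difference of the responses, cKO minus control, 0 of the 37 genes were called and 0 had an unadjusted p under 0.05 (edgeR), where the background was 0.00% called in either direction and 3.87% with an unadjusted p under 0.05. DESeq2 and the limma fits called none either. The smallest p values of the edgeR fit were those of Ifit2 (0.37 ± 0.19, 95% interval -0.02 to 0.76), Gbp2 (0.38 ± 0.20, interval -0.04 to 0.80) and Ifi206 (-1.07 ± 0.69, interval -2.53 to 0.38), each with an adjusted p of 0.997. These differences use the same libraries as the comparisons above, so they are no separate evidence.

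Single libraries were high or low within their group for many of the genes at once. Among the 5 stimulated control libraries, replicate 4 was the highest for 25 of the 37 genes, with a median deviation of 0.39 from the group mean on the log2(CPM + 0.5) scale. Among the 4 stimulated cKO libraries, replicate 4 was the lowest for 30 of the 37 genes, with a median deviation of -0.32. Among the 3 non-stimulated cKO libraries, replicate 3 was the highest for 24 of the 37 genes, with a median deviation of 0.17. Stimulated control replicate 4 and stimulated cKO replicate 4 are also the libraries with the most and the least Ifng among stimulated ones, at 195 and 24.4 CPM, and what part Ifng had in this was not tested. Without stimulated control replicate 4 the control cells had 7 genes called higher and 21 lower, beside 3864 and 3835 of all 15596 tested genes. Without stimulated cKO replicate 4 the cKO cells had 8 called higher and 17 lower, beside 4088 and 3827 of 15603. Without non-stimulated cKO replicate 3 they had 6 and 17, beside 3693 and 3735 of 15937. With the library of high mitochondrial share (stimulated cKO replicate 3) left out, they had 8 and 20, beside 4020 and 3960 of 15610.

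**Figure D5:**
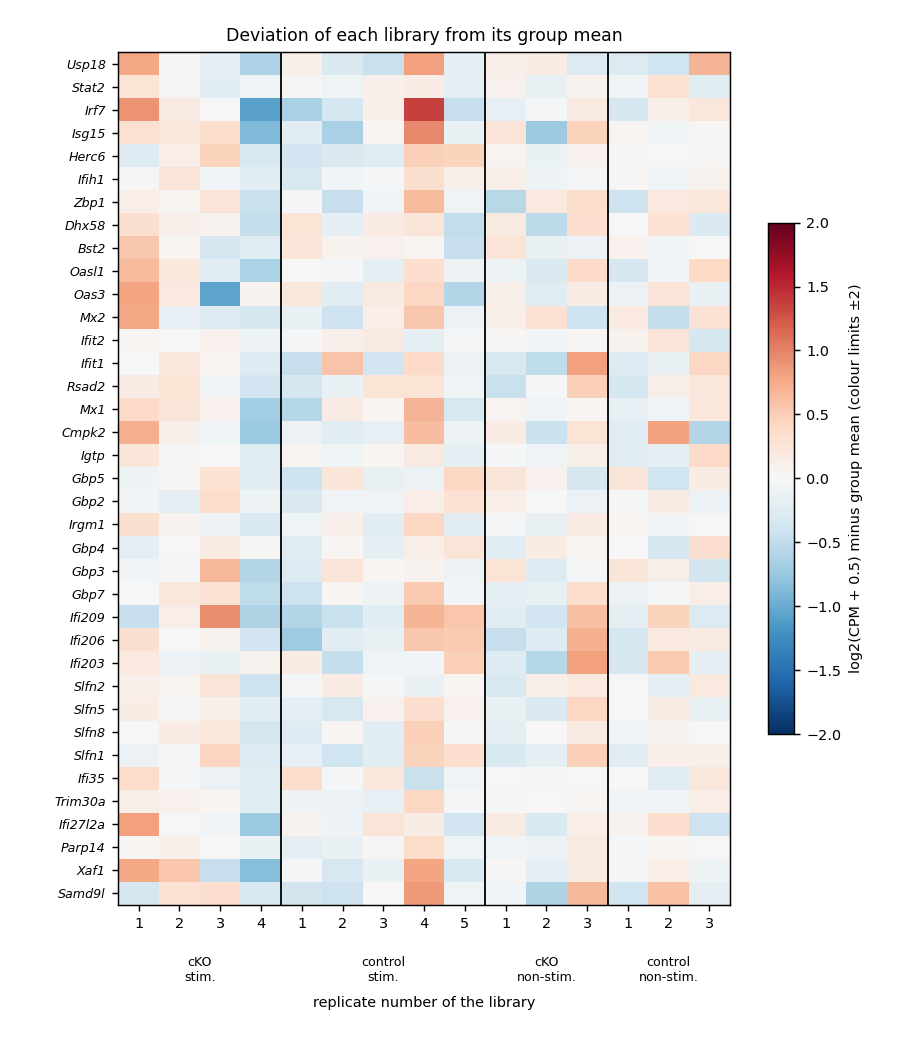
Deviation of each of the 15 libraries (columns, by group and replicate number) from its group mean for the 37 tested genes (rows), as log2(CPM + 0.5) from blue (lower) to red (higher). Stimulated control replicate 4 is the reddest of its group for 25 genes, and stimulated cKO replicate 4 is the bluest of its group for 30.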

How the data were processed

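RNA was measured in 15 libraries, and each had 1 value per gene for 56748 genes in 2 tables. The authors deposited estimated counts, not scaled between samples, and TPM values, scaled for length and within each library. Per the labels' protocols, a stranded total RNA kit with removal of ribosomal RNA was used. The GRCm39 genome and the tools Salmon 1.10.1, STAR 2.7.9a and cutadapt 3.4 are named per the submitters' processing notes, with no role for each; the annotation release is not given in the sources used here.

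Estimated counts were rounded and analysed in R 4.3.3 with edgeR 4.0.16: filterByExpr left 15619 genes, library sizes were TMM-scaled (trimmed mean of M-values), and a robust quasi-likelihood model with 1 mean per group was fitted to all libraries. Tests were two-sided with Benjamini-Hochberg adjustment over all tested genes, with calls made where the adjusted p was under 0.05. SE and 95% intervals come from that model, and SD is over libraries. The 5 comparisons were stimulation in each genotype, cKO against control in each condition, and the difference of the responses. Library totals were 17.1 M to 24.2 M counts (M, mega), so a gene near 1 CPM rests on few counts and has a wide interval. The method was tested on simulated data.

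Library values are given for called genes with the 6 largest rises and 6 largest falls of each stimulation comparison at 1 CPM or more, for the 3 smallest p of comparisons without a call, and for 6 holders of a role. Genes of other lists are the 4 with the smallest p, plus Irf9, Irf1, Ifng, Ifnar1, Ifnar2 and Socs1; 1 result under this rule is not reported here. The members and lists were chosen with earlier results of these data known. Shared 31-base words were counted in transcripts of GENCODE M21, and promoter windows are from RefSeq.

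Alternatives were DESeq2 1.42.0, other size factors, no or a stricter filter, only the groups compared, replicate number as a block, no robust dispersion, and limma 3.58.1 with voom weights or on log2 of TPM plus 0.1 or 1, and leaving out each library. The labels do not say that replicate numbers pair libraries, and the reported model leaves them unpaired. Deviations of same-numbered libraries correlated between -0.19 and 0.15. With so few libraries per group, this cannot tell whether same-numbered libraries share an animal or a culture.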

Additional observations from a re-analysis of the deposited data

Results flagged for a closer look

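Within groups of 4 or 5 libraries, 7 of 74 gene and group combinations held a library separated from the rest by Dixon's test on CPM, which flags about 1 in 20 by chance. Of these, 5 concern stimulated control replicate 4, which was the highest of 5. It had 8.70 CPM of Irf7, where the other libraries had 1.76 to 3.30, and 1.56 CPM of Cmpk2, where the others had 0.658 to 0.751. It had 9.54 CPM of Xaf1 (others 4.15 to 5.21), 105 CPM of Trim30a (others 70.2 to 76.0) and 20.7 CPM of Samd9l (others 8.4 to 11.4). Stimulated cKO replicate 4 had 0.807 CPM of Isg15, the lowest of 4, where the others had 2.30 to 2.56. Stimulated cKO replicate 1 had 0.924 CPM of Mx2, the highest of 4, where the others had 0.161 to 0.246. What set these libraries apart was not tested.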

How the results depend on the processing

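Across 26 other settings, 15 of them leaving out 1 library, no member was called in any comparison of genotypes or of responses. In cKO cells 3 to 9 members were called higher and 18 to 23 lower under the settings that keep all libraries. The lowest count, 3 called higher, came under limma on log2(TPM + 0.1) and also 3 under log2(TPM + 1), against 7 reported; the cause was not tested. In control cells 7 to 8 were called higher and 13 to 21 lower. The settings that keep all libraries tested 14092 to 28064 genes. Of all these, 2526 to 4304 were called higher and 3443 to 4575 lower in cKO cells. In control cells 3519 to 4324 of all were called higher and 2108 to 4377 lower. Leaving out 1 library gave 6 to 8 higher and 17 to 22 lower in cKO cells, and 7 to 8 higher and 16 to 21 lower in control cells. Those fits tested 15580 to 15976 genes. Of all these, 3693 to 4298 were called higher and 3693 to 4265 lower in cKO cells. In control cells 3305 to 4069 of all were called higher and 3377 to 4007 lower. With the replicate block the member counts were 8 higher and 19 lower in cKO cells and 7 higher and 17 lower in control cells. Of all 15619 tested genes, that fit called 4124 higher and 4205 lower in cKO cells and 3704 and 3707 in control cells. With the block within genotype the member counts were 9 and 19 in cKO cells and 7 and 21 in control cells. Over all 15619 genes the calls there were 3811 and 3889 in cKO cells and 3519 and 3487 in control cells. The labels do not say that the numbers pair the libraries, and the block within genotype cannot be fitted to a comparison of genotypes. Signs were followed across settings for called genes and the 6 holders of a role in the stimulation comparisons. In the other comparisons they were followed for the 3 genes with the smallest p. Among these, values with no call changed sign in 2 cases. Stat2 in control cells was 0.070 without non-stimulated control replicate 2 (with 1 library left out in turn it ranged from -0.22 to 0.070). The difference of responses for Ifi206 was 0.23 under the replicate block within genotype. Other values with no call, some of them near 0, were not followed. On the log2(TPM + 0.1) scale the median of all tested genes moved to -0.09 in cKO cells and 0.14 in control cells for stimulation, and with it all genes called were 2583 higher and 3443 lower in cKO cells and 3754 higher and 2108 lower in control cells. Calls most often lost were Slfn8 in control cells (19 settings), Xaf1 in control cells (9), Gbp3 in cKO cells (8) and Oas3 in cKO cells (7). Members under 1 CPM, such as Usp18, Oasl1 and Mx2, have too few counts for a change below about the size of their intervals to be seen.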
